A study of Drosophila melanogaster with 3 samples.

Results

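Mef2 and 9 genes of the muscle sarcomere were examined for peaks of a GFP-tagged chromatin protein in Drosophila melanogaster embryos. The 10 genes, Mef2, Mhc, Mlc2, Tm1, Tm2, wupA, up, sls, bt and Act57B, were chosen by name from 13945 protein-coding genes on 6 chromosome arms. A peak was assigned to a gene when its summit, the position of highest enrichment given in the list, lay inside the gene or within 2 kb of it. Whole embryos of pooled sex, aged 0 to 24 h, were sonicated to fragments of 200 to 800 bp, and the tagged protein was recovered with an anti-GFP antibody and its DNA sequenced (chromatin immunoprecipitation sequencing). The 3 biological replicates, numbered 1, 2 and 4, are separate biosamples of 1 transgenic line and form 1 group, with no treatment named. Which protein carries the tag is unclear from the labels: the strain is CG18619-GFP and the source and antibody fields also point to CG18619 (REPTOR-BP), but a note and the description give REPTOR with GFP at its C terminus. Both are basic leucine zipper transcription factors that work as partners in the TORC1 nutrient pathway, and only "the tagged protein" is used here. No untagged or mutant group was used here, and embryos of this age range hold all tissues, so muscle and other cells cannot be told apart.

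The sarcomere is the contractile unit of striated muscle. Myosin thick filaments slide along actin thin filaments, calcium sets the position of the troponin and tropomyosin complex that covers the actin filament, and giant proteins of the titin family hold the lattice in register. Mef2 is the MADS-box transcription factor that switches on these structural genes in all muscle lineages of the fly, binds an A/T-rich site, and is itself induced in the embryonic mesoderm by Twist through enhancers spread along its locus.

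Outside the Mef2 locus, the 9 sarcomere genes held 2 peaks, 1 at sls and 1 at Tm1. Among all protein-coding genes, 36.1% had a peak and 20.6% had one within 500 bp of an isoform start, as sls and Tm1 did. Sequences at both peaks are shown because each lies just upstream of an isoform start of a structural gene and was found in every replicate. Both sequences come from the RefSeq copy of the dm6 assembly and run 5′ to 3′ on the strand of the gene. The summit and 50 bp to each side of it are in capitals. The sls sequence covers chr3L:2115719-2116018 on the minus strand and ends 108 bp before the annotated start of all 13 sls transcripts. The Tm1 sequence covers chr3R:15281073-15281372 on the plus strand, and the start of Tm1-RG is its base 299.
sls: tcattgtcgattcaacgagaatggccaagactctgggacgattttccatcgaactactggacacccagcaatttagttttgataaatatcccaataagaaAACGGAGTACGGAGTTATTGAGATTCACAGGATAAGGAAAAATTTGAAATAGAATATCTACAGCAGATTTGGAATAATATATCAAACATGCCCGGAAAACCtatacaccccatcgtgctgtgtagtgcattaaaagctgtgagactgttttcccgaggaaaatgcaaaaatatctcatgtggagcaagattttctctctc
Tm1: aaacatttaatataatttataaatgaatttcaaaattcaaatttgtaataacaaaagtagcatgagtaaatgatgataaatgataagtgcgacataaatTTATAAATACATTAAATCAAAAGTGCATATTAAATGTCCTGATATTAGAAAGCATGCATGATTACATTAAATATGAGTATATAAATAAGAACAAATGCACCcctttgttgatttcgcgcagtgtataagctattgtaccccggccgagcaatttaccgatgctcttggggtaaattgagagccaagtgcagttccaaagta
The capitals held 34.7% G and C at sls and 23.8% at Tm1. Motifs were read on both strands. The Tm1 capitals held 1 E-box core (CANNTG, the core bound by basic helix-loop-helix factors, here CAAATG from base 191), and the sls capitals held none of the 5 motifs searched. Outside the capitals, the sls sequence had an E-box core from base 276 and overlapping GAGA repeats (GAGAG, read as CTCTC on this strand) from bases 294 and 296, and the Tm1 sequence had an E-box core from base 282 and a GAGA repeat from base 276. In windows of the same 300 bp at all 5208 peaks, 74.4% held an E-box core and 33.8% a GAGA repeat. Neither sequence held a CRE core (TGACG, part of the site of many basic leucine zipper proteins), a MEF2 consensus site or a DRE (TATCGATA), which occurred in 21.0%, 17.0% and 4.07% of the windows at all peaks.

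Peaks were at Mef2, Tm1 and sls, that is at 3 of the 10 genes, while 36.1% of all protein-coding genes had a peak by the same rule. The authors' optimal list, reduced by comparing the replicates, held 5208 peaks, of which 9 fell at these genes: 7 at Mef2, 1 at Tm1 and 1 at sls. The median was 0 peaks per gene, both over the 10 genes and over all genes. The strongest 5208 regions of each replicate list gave 12, 9 and 9 regions at the 10 genes in replicates 1, 2 and 4, a mean of 10 ± 1.73 (SD, n = 3). Mef2, Tm1 and sls were the genes with a region in each of these 3 lists, whereas 35.6%, 36.2% and 35.5% of all genes had one. Signal is the enrichment value that the authors' peak caller gave each region, on a scale of its own in each list, so lists are compared by rank. Its lowest, median and highest values in the optimal list were 148, 252 and 4036. Read counts are not part of the lists, so depth is unknown, and a signal or rank in the optimal list carries no error of its own.

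**Figure D1:**
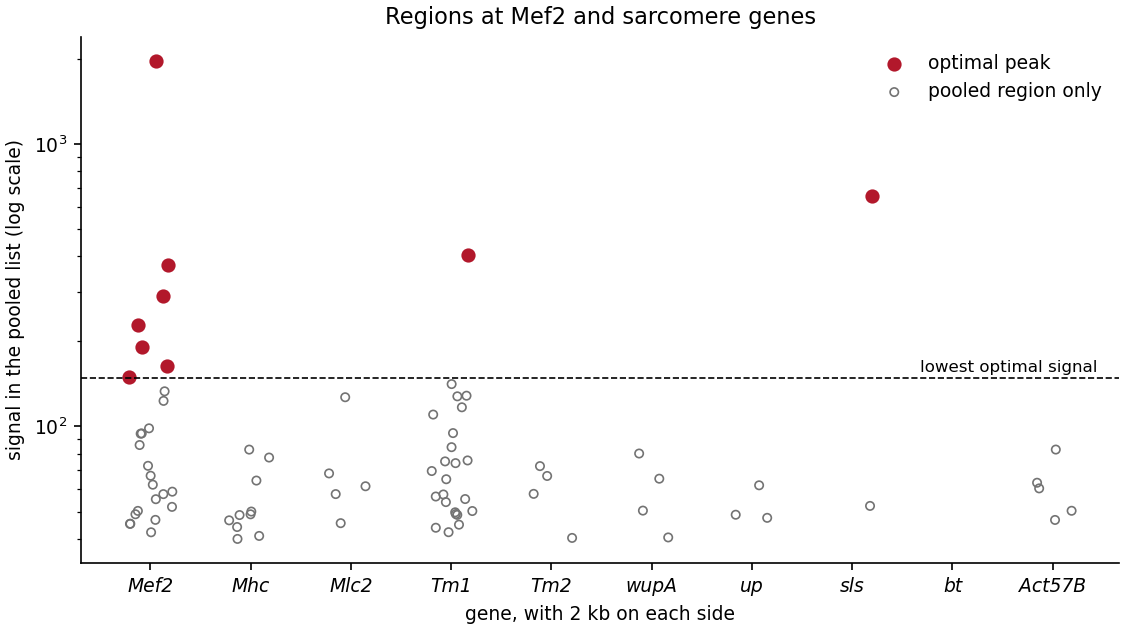
Signal (log scale) of every region of the authors' pooled list, which joins the 3 replicates, inside each gene or within 2 kb, with optimal peaks filled and the dashed line at the lowest optimal signal of 148. Points are spread sideways for legibility; 9 of the 83 regions lie above the line, 7 of them at Mef2, and bt has no region.

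A promoter peak, with its summit within 500 bp of the start of any isoform, was found at 2 of the 10 genes, Tm1 and sls, and at 20.6% of all genes. The strongest 5208 regions of replicates 1, 2 and 4 placed such a region at 3, 2 and 2 of the 10 genes, against 20.03%, 21.2% and 20.2% of all genes. The gene added in replicate 1 was Mef2, with a region at rank 4705 near the start of 8 of its transcripts. The longer pooled list of 30000 regions, which the authors deposited with peaks and background together, had a region within 500 bp of a start at 9 of the 10 genes, all but bt, against 46.3% of all genes. These genes have 1 to 8 annotated starts each, and no allowance was made for that number. Per 10 kb of gene and flanks, the 10 genes held 0.303 peaks and all genes 0.551. The value over the 9 sarcomere genes alone, without Mef2, was 0.0807. For all genes, peaks and sequence shared by neighbouring genes count for each of them, and gene length was not matched.

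**Figure D2:**
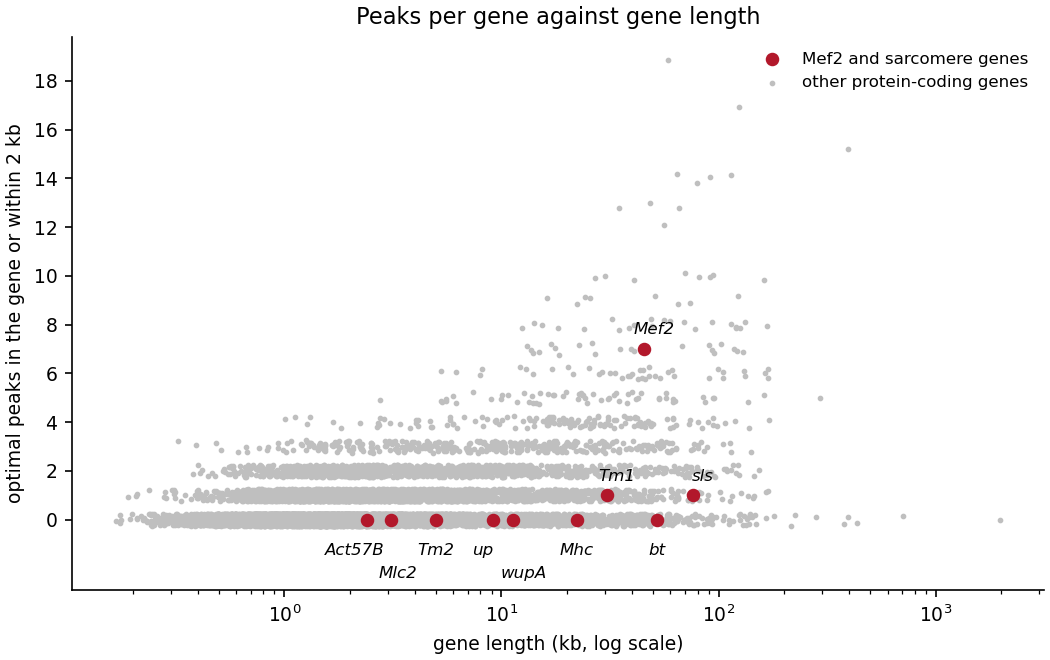
Optimal peaks in each gene or within 2 kb (vertical axis) against gene length in kb (log scale), with the 10 genes in red and all other protein-coding genes in grey, the grey points spread vertically for legibility. Mef2 stands at 7 peaks, Tm1 and sls at 1, and the other 7 genes at 0.

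Mef2 (FBgn0011656) lies at chr2R:9913496-9958858 on the minus strand of dm6, spans 45.4 kb and has 11 annotated transcripts from 3 starts. Its 7 peaks came to 1.42 per 10 kb. Of all genes, whatever their length, 71 (0.509%) had at least 7 peaks. Of the 369 genes at least as long as Mef2, 122 (33.1%) had none and the median was 2. The share of these long genes with at least 7 peaks was not computed. The 7 at Mef2 include 1 outside the gene, described below. The strongest 5208 regions of replicates 1, 2 and 4 gave 6 regions each at Mef2.

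The strongest peak by far, with a signal of 1973 and rank 31 of 5208, lay outside the gene, 1056 bp upstream of its 5′ end (summit 9959914, region chr2R:9959678-9960136). Its signal in replicates 1, 2 and 4 was 647, 456 and 879, at ranks 34, 38 and 30. The 3 ranks lay within 8 places of each other, the closest of any peak at these genes. The summit is also 164 bp upstream of a start of Pal1, a peptidyl-hydroxyglycine lyase gene on the plus strand, inside an intron of another Pal1 isoform, and 182 bp upstream of the start of Pdrg1 on the minus strand. It is the 1 peak of the 9 for which the nearest start belongs to another gene, so which of the 3 genes it goes with cannot be told from position. The bases within 50 bp of this summit held 31.7% G and C, against 42.1% in the windows 500 bp to each side, and contained a CRE core.

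The other 6 Mef2 peaks lay inside the gene, and 5 of them fell within the first intron of the long isoforms Mef2-RF and Mef2-RH. The second strongest had a signal of 374 and rank 1391 (summit 9942976, chr2R:9942877-9943091), with signals of 121, 77.1 and 169 and ranks 1458, 2587 and 1234 in replicates 1, 2 and 4. It was in the noncoding first exon of Mef2-RG, 1788 bp downstream of that isoform's start, and was the 1 peak of the 9 in an annotated exon. Its summit was also the richest in G and C of the 9, at 57.4% against 32.2% beside it, and held an E-box core.

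A pair of summits 501 bp apart followed, 4449 and 4950 bp upstream of the Mef2-RG start, and the replicates ranked them in opposite order. The first, at 9949213, had signal 290.1 and rank 2100, with signals of 104, 135 and 62.8 and ranks 1859, 881 and 4543 in replicates 1, 2 and 4. The second, at 9949714, had signal 229 and rank 2971, with signals of 30.4, 44.2 and 169 and ranks 10396, 6892 and 1236. The first was the higher of the pair in replicates 1 and 2, and the second in replicate 4. In replicates 1 and 2 the second ranked below 5208.

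Nearer the 5′ end, in the same intron and 3316 and 4048 bp downstream of the 5′ end, were summits at 9955542 and 9954810. The first had signal 191 and rank 3768, with signals of 51.9, 91.7 and 49.4 and ranks 5000, 1812 and 6064 in replicates 1, 2 and 4. It contained both an E-box core and a CRE core. The second, with signal 150.2 and rank 5116, stood close to the end of the list, and its signals were 66.2, 27.6 and 59.9 at ranks 3601, 14700 and 4801. Replicate 2 was the highest of the 3 in rank at the first summit and the lowest at the second.

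The last Mef2 peak, at 9930371, lay 756 bp upstream of the start shared by 8 of the 11 Mef2 transcripts, in an intron of the longer isoforms. It had signal 164 and rank 4602, and within 100 bp it was matched in replicate 2 alone, with a signal of 52.1 at rank 5221. Within 200 bp, replicate 1 had a region at rank 5689 and replicate 4 one at rank 7445, both below the first 5208. No Mef2 peak was within 500 bp of a Mef2 start. Below the end of the optimal list, the pooled list had Mef2 regions at rank 5969, in an intron, and at rank 6588, with signal 123, 94 bp upstream of the 5′-most start. The second was matched within 100 bp in replicates 1 and 4, at ranks 6955 and 8568, and replicate 2 had a region within 500 bp of that start at rank 5518.

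**Figure D3:**
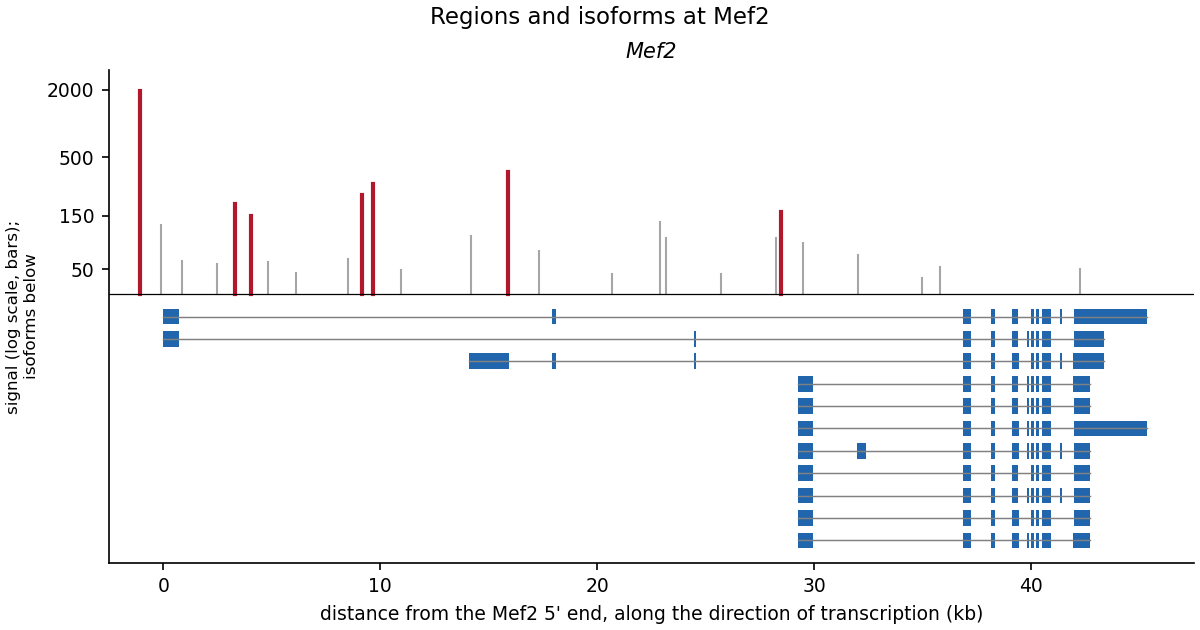
Regions and isoforms along Mef2, with distance from the 5′ end in kb in the direction of transcription; upright bars give the signal in the pooled list on a log scale (red for optimal peaks, grey for other pooled regions) and blue boxes give the exons of the 11 transcripts. The red bars stand 1056 bp upstream of the gene, within the first long intron and just before the start shared by 8 transcripts.

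Myosin heavy chain and its regulatory light chain, the thick filament genes, had no peak. Mhc (FBgn0264695, chr2L:16766566-16788766), the single gene for every muscle myosin heavy chain of the fly, had 10 regions in the pooled list. The strongest of these had signal 82.8 and rank 10846, and its summit was 349 bp upstream of an internal Mhc start. The best region in replicates 1, 2 and 4 had signals of 34.3, 26.4 and 38.4, at ranks 8755, 15692 and 8183, and each was at a different place. The nearest peak was 23.4 kb away, at the promoter of LSm7. Mlc2 (FBgn0002773, chr3R:30171438-30174551) codes for the regulatory light chain, and its strongest pooled region had signal 127 and rank 6335. That region lay outside Mlc2, in an intron of the gene next to it, Rsod, and had ranks 6727, 8194 and 6598 in replicates 1, 2 and 4. The nearest peak was 15.5 kb from Mlc2.

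Of the thin filament genes, Tm1 had a peak and Tm2, wupA, up and Act57B had none. Tm1 (FBgn0003721, chr3R:15278220-15308779, plus strand) makes muscle and cytoplasmic tropomyosins, the rod proteins that lie along actin filaments, from 18 annotated transcripts and 8 starts. Its peak (chr3R:15280994-15281449, summit 15281222) had signal 405 and rank 1236. Signals in replicates 1, 2 and 4 were 78.99, 97.3 and 172, at ranks 2795, 1643 and 1198. The summit was 149 bp upstream of the start of Tm1-RG, 310 bp upstream of a start shared by 3 transcripts and 328 bp upstream of a start shared by 7, so that 11 of the 18 transcripts begin within 500 bp of it. The isoform Tm1-RT begins 3002 bp before the summit, and the peak lies in its first intron. Replicate 1 also had a stronger region 127 bp from this summit, with signal 139 and rank 1143.

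Tm1 had 24 regions in the pooled list, or 6.94 per 10 kb, against 2.52 for all genes. Act57B and Mlc2, which had no peak, reached 7.80 and 7.03 per 10 kb, and the rest of the 10 genes were below Tm1. The 3 strongest Tm1 regions after the peak were below the end of the optimal list. The first had signal 141 and rank 5529 and was 79 bp downstream of the Tm1-RH start, with a match at rank 5154 in replicate 1, none within 100 bp in replicate 2 and rank 27074 in replicate 4. Replicate 2 had a region of its own at the same start, 278 bp downstream of it, with signal 72.3 and rank 2907, the highest rank of the 3 replicates within 500 bp of that start. The second had rank 6237 and was 86 bp upstream of a start shared by Tm1-RC and Tm1-RI. The third had rank 6277 and was matched at ranks 5173, 28039 and 4190 in replicates 1, 2 and 4. The replicates placed 5, 2 and 2 of their strongest 5208 regions at Tm1, so replicate 1 accounts for the larger count at the 10 genes given above.

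Tm2 (FBgn0004117, chr3R:15310193-15315197), the second tropomyosin gene, begins just downstream of Tm1. Its strongest pooled region had signal 72.4 and rank 12933, and its best regions ranked 10072, 12226 and 8696 in replicates 1, 2 and 4. The nearest peak was 5.17 kb from Tm2, on the side away from Tm1, at the promoter of CG44040. The troponin I gene wupA (FBgn0283471, chrX:18105568-18116922) had a strongest pooled region of signal 80.2 and rank 11309, 391 bp upstream of a start. Its best regions ranked 7418, 15709 and 14576 in replicates 1, 2 and 4. The troponin T gene up (FBgn0004169, chrX:13593474-13602578) reached signal 61.9 and rank 15833, the lowest of the genes with any pooled region, and ranks 15756, 18228 and 16018 in the replicates. None of these troponin regions was among the first 5208 of its list.

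Act57B (FBgn0000044, chr2R:20944021-20946431), a muscle actin gene and a known direct target of Mef2, had a strongest pooled region of signal 82.9 and rank 10842. This region, in an exon 859 bp downstream of the start, was matched in replicates 1, 2 and 4 at ranks 11252, 13435 and 10981. Its 3 ranks were thus close together but far down each list. A peak with signal 198 and rank 3604 lay 3967 bp upstream of the gene, and Act57B has the nearest start to it, but it falls outside the 2 kb limit.

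**Figure D4:**
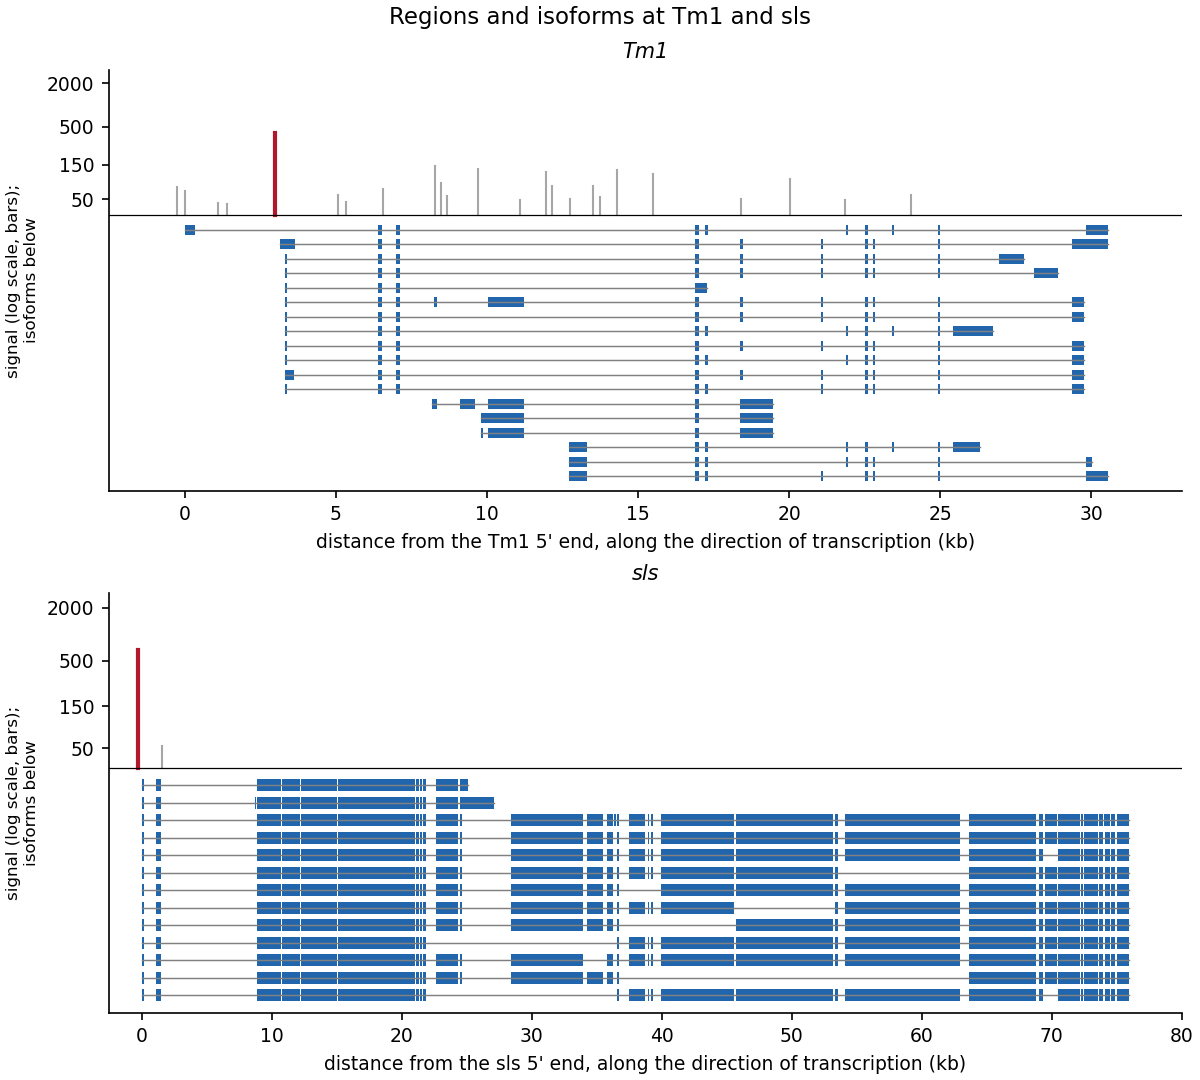
Regions and isoforms along Tm1 (top) and sls (bottom), with distance from each gene's 5′ end in kb; upright bars give the signal in the pooled list on a log scale (red for optimal peaks, grey for other pooled regions) and blue boxes the exons of each transcript. At Tm1 the red bar stands 3002 bp into the gene beside the starts of 11 transcripts, and at sls it stands 257 bp upstream with 1 grey bar in the gene.

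The giant elastic proteins differed from each other. The gene sls (FBgn0086906, chr3L:2039681-2115611, minus strand) codes for Sallimus or kettin, a titin-like protein that links the Z-disc to the thick filament, and its 1 peak stood 257 bp upstream of its only annotated start, between sls and the next gene zormin. The peak (chr3L:2115739-2116050, summit 2115868) had signal 655 and rank 510. Signals in replicates 1, 2 and 4 were 195, 169 and 293, at ranks 619, 553 and 463. The replicate ranks stayed within a narrow range, and the replicate summits were 0, 36 and 16 bp away. In the body of sls, 75.9 kb long, the pooled list had 1 region, at rank 19915. Of the 148 genes at least as long as sls, 20 (13.5%) had at most 2 pooled regions, and the median was 21. Exons make up 77.7% of sls, and none of the other genes of that length had so high a share, the median being 8.04%. The part of exon content in this small number of regions was not tested.

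The gene bt (FBgn0005666, chr4:724400-776474) codes for projectin, the titin-like kinase of the thick filament. It had no peak and no region at all in the pooled list over 52.1 kb. The replicate lists had 5, 1 and 6 regions there, the best at ranks 13837, 22447 and 10868 in replicates 1, 2 and 4, none of these 3 within 500 bp of a start. Of the 295 genes at least as long as bt, 99 (33.6%) had no peak, and 17 (5.76%) had no pooled region. Exons cover 53.8% of bt, against a median of 10.02% in these genes. Chromosome 4, where bt lies, is small and largely heterochromatic, and 9 of its 80 genes (11.25%) had a peak. The whole chromosome held 89 of the 30000 pooled regions, and 86, 188 and 105 regions of replicates 1, 2 and 4. No other gene of chromosome 4 is as long, so length and chromosome cannot be told apart for bt. The nearest peak was 31.2 kb away at the promoter of Sox102F, with signal 580.1 and rank 635.

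**Figure D5:**
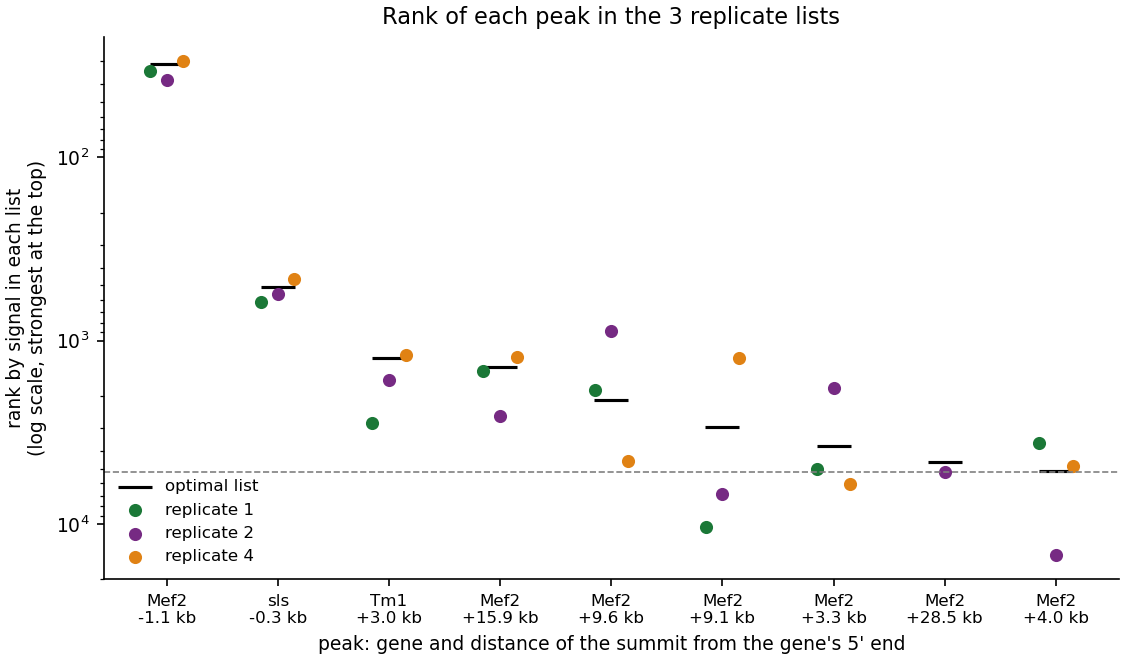
Rank of each of the 9 peaks in replicates 1, 2 and 4 (points) and in the optimal list (bars), on a log scale with the strongest at the top and peaks ordered by optimal rank; the dashed line is rank 5208. The peaks upstream of Mef2 and of sls have nearly equal ranks in all replicates, while the weaker Mef2 peaks spread to either side of the line.

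Of the 9 peaks, 8 were matched within 100 bp in all 3 replicates, against 83.2% of all 5208 peaks, and 1 was matched in a single replicate. Part of this matching is built in, since the optimal list was derived from the replicate lists. When only the strongest 5208 regions of each replicate were searched, 5 of the 9 were matched in all 3, namely those at sls and Tm1 and the 3 strongest at Mef2. The same 5 peaks were the highest ranked of the 9, all among the first 2604 of the optimal list. By position, 7 of the 9 summits (77.8%) were in introns, against 49.4% of all peaks. In exons was 1 summit (11.1%), against 9.98%, and between genes 1 (11.1%), against 40.6%. No summit was in coding sequence. The intron count includes the peak upstream of Mef2, which is in an intron of Pal1, and the Tm1 peak, which is in an intron only of Tm1-RT. The other summits in introns all lie inside Mef2. Peaks at the 10 genes had to be inside a gene or within 2 kb of it, a limit not set for all peaks. The shares by position are therefore not compared like for like.

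By median, the summits at these genes were A/T-rich, as were those of all peaks, while the bases beside them varied from peak to peak. The median share of G and C was 34.7% within 50 bp of the 9 summits and 35.6% in the windows 500 bp to each side, against 33.7% and 43.6% over all peaks. In the side windows of single peaks it ran from 31.7% to 48.0%. The pair of Mef2 summits 501 bp apart fall in each other's side windows, so their side values are not separate from the summits. The summit was the lower for 6 of the 9 peaks and for 76.3% of all peaks. No summit window at the 10 genes contained a MEF2 consensus site, which was found at 6.57% of all peaks. An E-box core was found at 3 of the 9 and at 35.9% of all peaks, a CRE core at 2 and at 6.72%, a GAGA repeat at 1 and at 10.4%, and a DRE at 0 and at 78 of the 5208 peaks. With 9 windows these counts describe the peaks and nothing more.

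With promoters of 500 bp to either side, the share of other muscle genes with a promoter peak was near that of all genes. Within 250 bp it was lower, at 2 of the 44 contractile and development genes below against 16.1% of all genes. Within 1000 bp it was 11 of the 44, against 23.7%. Of 26 other contractile genes, 11 had a peak (42.3%) and 4 a promoter peak (15.4%), against 36.1% and 20.6% of all genes. The 4 were Msp300, a nesprin that anchors muscle nuclei (signal 1112, rank 176), the muscle actin gene Act87E (signal 286), the thin filament capping gene tmod (signal 235) and the calcium release channel gene RyR (signal 171). The Msp300 peak, 340 bp upstream of a start, ranked 243, 220 and 124 in replicates 1, 2 and 4, higher than any peak at the 9 sarcomere genes. The RyR peak had no match in replicate 2. Promoter regions among the strongest 5208 of replicates 1, 2 and 4 were at 5, 4 and 4 of these 26 genes, against 20.03%, 21.2% and 20.2% of all genes.

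Of 18 muscle development genes, 9 (50%) had a peak and 3 (16.7%) a promoter peak. These 3 were the T-box gene org-1 (signal 590.1, rank 610), the myoblast fusion gene mbc (signal 453, within 500 bp of another gene's start as well) and the cardiac homeobox gene tin (signal 428). Their strongest 5208 regions gave 3, 3 and 4 genes with a promoter region in replicates 1, 2 and 4, beside the same shares of all genes. The largest number of peaks in this list was 15 at kirre, a fusion receptor gene 394 kb long. Among 5 cytoplasmic counterparts of the sarcomere genes, the myosin light chain gene sqh had a promoter peak of signal 767 and rank 380, and the actin gene Act5C one of signal 529 and rank 758. The cytoplasmic genes Act42A, zip and Mlc-c had no promoter peak in the optimal list, and replicates 1, 2 and 4 gave 2, 3 and 2 of the 5 genes with a promoter region. Over all genes the share was 20.6% in the optimal list and 20.03%, 21.2% and 20.2% in the replicates, and 5 genes are too few to read a difference from.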

How the data were processed

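Regions of 3 replicates of whole embryos were taken from the authors' deposited lists on dm6. Each holds the signal per region that the authors' caller gave and a −log10 q value; per the deposited inventories the pooled list joins the 3 alignments with 1 control, and the optimal list was derived from the replicate and pooled lists by irreproducible discovery rate. The caller, the aligner and the threshold are not stated in the labels or inventories read here, and normalization and depth are unknown. The dm3 lists were not used.

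Summit was column 2 + column 10 + 1, and rank the order by signal (column 7). Genes and isoforms came from Ensembl release 115, and sequence from RefSeq. Promoters were 500 bp to either side of any isoform start and matches were within 100 bp. An exon of any isoform took precedence over an intron. GC and motifs were read within 50 bp of the summit. The functions were tested on simulated lists. Members and lists were chosen with earlier results of these data known, so values are described beside those of all genes or all peaks, with no test. All 10 members were named, with the strongest peak or pooled region of each and the promoter peaks of the other lists. Alternatives covered flank, threshold, promoter width, match distance, replicates and windows. Python 3.11.15, numpy 2.4.6, pandas 2.3.3 and matplotlib 3.10.9 were used.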

Additional observations from a re-analysis of the deposited data

How the results depend on the processing

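Of 36 alternatives over 9 results, 25 stayed within the tolerance and 11 did not. The tolerance was 1.5 times for counts, which lets a count of 2 become 3, and 1 SD over the replicates for other values (0.0583 peaks per 10 kb, 1.58 percentage points of G and C, 6.42 points for introns). Genes with a peak were 3, with 2 for gene bodies alone and 4 within 5 kb. The peaks at the 10 genes were 9, with 7 inside the genes and 11 within 5 kb, and 5 with the strongest 2604 optimal peaks only. No share of all genes was computed for these flanks or this shorter list, so the counts are not set against a background. Promoter peaks were at 2 genes, at 1 (Tm1) within 250 bp, at 3 within 1000 bp and at 1 (sls) with the gene's 5′ end as the only start. The peaks matched in all replicates were 8, but 5 within 50 bp and 5 in the strongest 5208 regions of each replicate; leaving out 1 replicate at a time gave 8 throughout. The density of 0.303 peaks per 10 kb was 0.404 with the replicate 1 list and 0.0807 without Mef2, a value chosen after the data were seen. The share in introns was 88.9% with exons of the longest isoform only, against 77.8%. The mean G and C share was 38.4% within 100 bp of the summit, against 36.6% within 50 bp. No window of 25 or 100 bp to each side held a MEF2 site. Promoter peaks at 7 of the 44 other muscle genes became 2 of 44 within 250 bp and 11 of 44 within 1000 bp. The shares of all genes at these widths were 16.1% and 23.7%, so at 250 bp the muscle genes were below all genes. The causes were not tested. Counting only peaks whose nearest start was the gene's own, also chosen after the data were seen, gave 8. Depth, which is unknown, limits the statement that 7 genes lack a peak to these lists.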
